A study of Mus musculus with 4 samples.

Results

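Mural cells wrap the walls of brain blood vessels. Pericytes sit in the basement membrane of capillaries, receive PDGF-B from the endothelium through the receptor encoded by Pdgfrb, and help to maintain the blood-brain barrier, while smooth muscle cells surround arterioles and contract through Acta2 and Myh11. Here they were followed in single-nucleus RNA sequencing of frozen mouse hippocampus. A nucleus was taken as mural when it had at least 500 unique molecular identifiers (UMIs), at most 5% mitochondrial UMIs, at least 3 of the 6 markers Pdgfrb, Rgs5, Vtn, Kcnj8, Abcc9 and Atp13a5, at most 1 of the 8 genes Mog, Mag, Aqp4, Pdgfra, Inpp5d, Flt1, Cldn5 and Col1a1, and at most 3 UMIs of Syt1 and Rbfox3 together. Of 32044 kept nuclei, 785 met this rule, so the members were chosen by the counts of these 16 genes, which are given below as a description, with no test.

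The 4 libraries came from 3 groups of littermates. Wild-type mice (WT) gave 1 library, and PS19 mice gave 2. PS19 mice carry human MAPT with the P301S mutation (1N4R tau) behind the Prnp promoter, on a mixed B6;C3 background. TG_PS19 mice, which gave 1 library, carry this transgene and also a SORLA-Rosa26 transgene that overexpresses SORLA (gene SORL1) from a CMV/β-actin promoter element. Tissue was pooled within a group, and the number, age and sex of the pooled animals are not given in the labels. The comparison of PS19 with WT asks what the tau transgene goes with in mural nuclei, and that of TG_PS19 with PS19 asks what SORLA adds. WT and TG_PS19 have no replicate, and nothing says that the PS19 libraries came from separate pools. The p-values thus rest only on the spread between these 2 libraries, which may be technical. This spread was shared between genes by edgeR's prior. In the core, a subset of these nuclei defined below, the prior degrees of freedom were infinite. A core p-value or standard error there therefore does not measure that gene's own spread between the 2 libraries.

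The rule found 323 mural nuclei in WT, 136 and 140 in the first and second PS19 libraries, and 186 in TG_PS19. Their median depth was 1520 UMIs in WT, 1741.5 and 2022 in the PS19 pair and 1313.5 in TG_PS19. Among members, 0 in WT and 1 in each other library had a barcode also found among all deposited nuclei of another library. Xist, the RNA of the inactive X chromosome, was detected in 86 of 186 TG_PS19 members (46.2%) but in 1 WT member and in 1 and 0 PS19 members. A UMI of the Y-linked genes Ddx3y, Uty, Kdm5d or Eif2s3y was found in 169 WT, 80 and 91 PS19 and 40 TG_PS19 members. Both Xist and a Y-linked UMI were found in 0, 1, 0 and 4 members, in the same order. The TG_PS19 pool thus held Xist-expressing and other nuclei, and sex cannot be told apart from genotype in the comparisons of that library. For TG_PS19, counts of called genes, list medians and several of the named genes are also given with every nucleus with an Xist UMI left out.

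Most of these nuclei had the profile of pericytes. A list of 26 further pericyte genes outside the rule, among them Slc38a11, Notch3, Ebf1 and Dlc1, held a median of 1.81% of the UMIs of a WT member, 1.99% and 2.11% in the PS19 pair and 2.11% in TG_PS19. Over all kept nuclei the medians were between 0.0298% and 0.0413%. Vtn, which encodes vitronectin, was detected in 322 of 323 WT, all 136 and 137 of 140 PS19 and 182 of 186 TG_PS19 members. Atp13a5, a pericyte-enriched transport ATPase gene, was found in 312, 134, 137 and 181, and Pdgfrb in 292, 129, 133 and 173, in the same order. Kcnj8, a subunit of the vascular ATP-sensitive potassium channel, was the least often seen of the 6, in 79, 54, 48 and 47 nuclei. Of the genes the rule limits, Flt1, an endothelial receptor, was the most common, with a UMI in 94, 44, 51 and 63 members.

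The label also names other mural cells, and few members had several contractile markers. At least 2 of the 6 contractile markers Acta2, Tagln, Myh11, Cnn1, Myocd and Lmod1 were detected in 1 of 323 WT members (0.31%, exact 95% interval 0.00784 to 1.71%), in 5 of 136 (3.68%, 1.2 to 8.37%) and 2 of 140 (1.43%, 0.173 to 5.07%) PS19 members, and in 0 of 186 TG_PS19 members, which allows up to 1.96%. At least 1 was detected in 7.74%, 11.8%, 6.43% and 7.53% of members, so at these depths nuclei of smooth muscle with few detected markers cannot be counted. In the whole libraries 30, 20, 23 and 9 nuclei had that many contractile markers, but only 4, 5, 3 and 1 of them had 3 of the 6 mural markers. These intervals, like all others here, cover counting error only. The results below are about nuclei with mostly pericyte-like profiles.

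The rule also admitted nuclei with markers of other types. Markers of another class, outside the rule genes, reached 0.5% of UMIs in 84 WT members (26.0%), 20 and 23 PS19 members (14.7% and 16.4%) and 39 TG_PS19 members (20.97%). Astrocyte markers did so in 44, 4, 11 and 13 members, fibroblast markers in 25, 16, 11 and 13, and neuron markers in 17, 0, 3 and 10. In these 84, 20, 23 and 39 nuclei the pericyte list held a median of only 0.434%, 0.635%, 0.489% and 0.824% of UMIs, and 63, 16, 20 and 24 of them had exactly 3 markers. The other 239, 116, 117 and 147 nuclei, called the core from here on, had medians of 2%, 2.05%, 2.21% and 2.22%. Members with astrocyte markers at 0.5% had medians of 0.0738%, 0.772%, 0.0369% and 0.0515%. Those with fibroblast markers had 0.635%, 0.596%, 0.557% and 1.06%. Those with neuron markers had 0.583% in WT, 1.85% in the second PS19 library and 1.28% in TG_PS19. Not all groups left out of the core were thus equally low in pericyte genes. The core was defined after these data had been seen, from genes of other cell types and not from pericyte genes, and each comparison is given both for all members and for the core. At the edge of the rule, nuclei with exactly 3 markers had pericyte-list medians of 0.815%, 0.858%, 0.613% and 1.19%, and nuclei with 2 had 0.0994%, 0.223%, 0.115% and 0.114%.

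**Figure D1:**
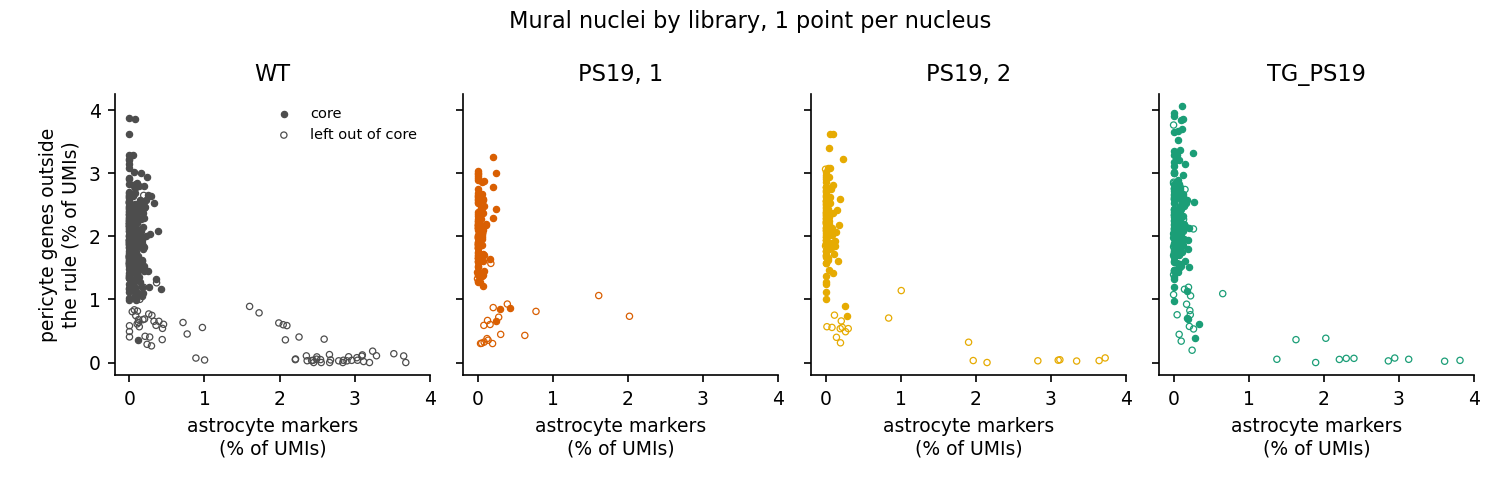
Each point is 1 mural nucleus, with the share of its UMIs in 8 astrocyte markers on the horizontal axis and in the pericyte genes outside the rule on the vertical axis, 1 panel per library. Filled points are the core. Members with astrocyte markers near 2 to 4% lie close to 0 on the pericyte axis, and WT has the most of them.

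Mural nuclei made up 2.53% of kept WT nuclei (exact 95% interval 2.27 to 2.82%), 2.93% (2.46 to 3.46%) and 2.84% (2.4 to 3.35%) of PS19 nuclei and 1.91% (1.65 to 2.21%) of TG_PS19 nuclei. The PS19 pair differed little from each other and overlapped WT, and TG_PS19 was the lowest. The core gave 1.87%, 2.5%, 2.38% and 1.51%. The mean of the PS19 pair was thus 1.14 times the WT share by the rule and 1.3 times in the core, and fell to 0.956 times with 2 of 6 markers, so its direction depends on how strictly mural nuclei are defined. TG_PS19 had 0.663 times the mean PS19 share by the rule and 0.62 times in the core, and 0.814 times by the rule when all Xist nuclei were left out. In the core without Xist nuclei its share was 1.99% (1.59 to 2.46%), beside 2.51% and 2.41% in PS19. Detection of Xist depends on depth, and core nuclei were shallower: Xist was detected in 42.9% of core and 54.7% of nuclei without mural markers as deposited, and in 41.7% (32.7 to 51.02%) and 44.1% (43.0 to 45.3%) after thinning to 1000 UMIs. Leaving out nuclei with an Xist UMI removed 56.6% of kept and 42.9% of core TG_PS19 nuclei. One library against 2 cannot give an exact permutation p under 0.3333, so the shares are a description. A share of nuclei also depends on how well each type survives nuclear extraction, which was not measured.

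**Figure D2:**
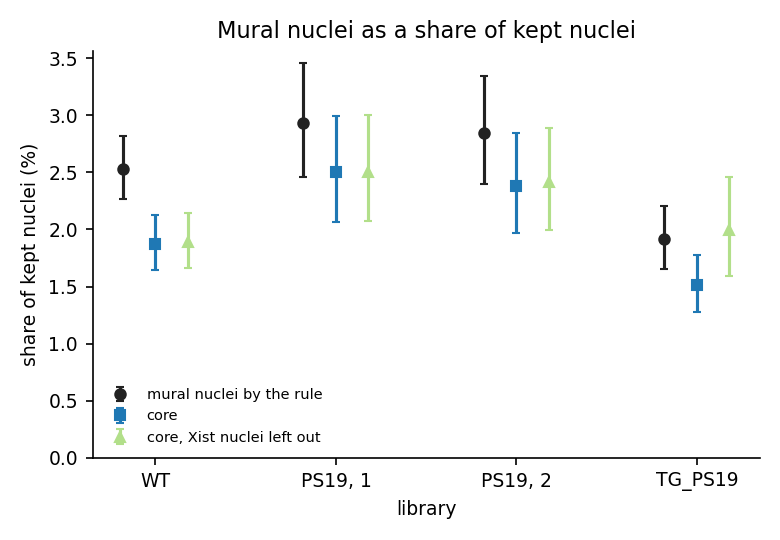
Mural nuclei as a percentage of the kept nuclei of each library, by the rule, in the core and in the core after leaving out every nucleus with an Xist UMI (from the total as well). Bars are exact 95% binomial intervals. TG_PS19 is lowest by the rule and in the core, and lies nearer the other libraries once Xist nuclei are left out, a step that removes 56.6% of its kept and 42.9% of its core nuclei.

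Transcripts of the human SORL1 transgene were found in TG_PS19 mural nuclei, at a higher level than in nuclei of that library without mural markers. TG_PS19 core nuclei held 62 SORL1 UMIs, or 308 counts per 1000000 UMIs (CPM; exact Poisson 95% interval 236 to 395), in 42 of 147 nuclei (28.6%). Nuclei of the same library with 0 of the 6 mural markers held 55.6 CPM (52.9 to 58.3), so the core level was 5.55 times theirs. All 186 members held 232 CPM, or 4.18 times. After each nucleus was thinned to 1000 UMIs, SORL1 was detected in 25% of 120 core nuclei and in 6.09% of 6844 nuclei without mural markers. These are counts of 1 library and have no replicate. In the core of WT and of both PS19 libraries SORL1 had 0 UMIs, which allows at most 8.72, 14.7 and 12.8 CPM (3 counts per library). The TG_PS19 point estimate of 308 CPM was 21 times the limit of the first PS19 library and 24.2 times that of the second. These ratios leave out the counting error of the TG_PS19 level.

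Mouse Sorl1, the endogenous gene of this sorting receptor (chromosome 9, 41964720 to 42124297, build GRCm38), was close to absent from the core. It gave 5 UMIs in WT, 1 in each PS19 library and 1 in TG_PS19, or 14.5, 4.9, 4.25 and 4.97 CPM. Nuclei without mural markers held 96.4, 89.9, 86.4 and 80 CPM. The human tau transgene was not detected in the core either. MAPT had 0 UMIs in the core of all 4 libraries, with limits of 14.7 and 12.8 CPM in the PS19 pair and 14.9 CPM in TG_PS19. In nuclei without mural markers MAPT stood at 18.6 and 19.9 CPM in the PS19 pair and at 13.4 in TG_PS19, so the PS19 limits lie below that background and the TG_PS19 limit does not. Mouse Mapt, a neuronal gene, held 34.9, 34.3, 17 and 44.7 CPM in the core and between 589 and 846 CPM in nuclei without mural markers. Reads of the human and mouse genes resemble each other and could in part be exchanged between them.

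**Figure D3:**
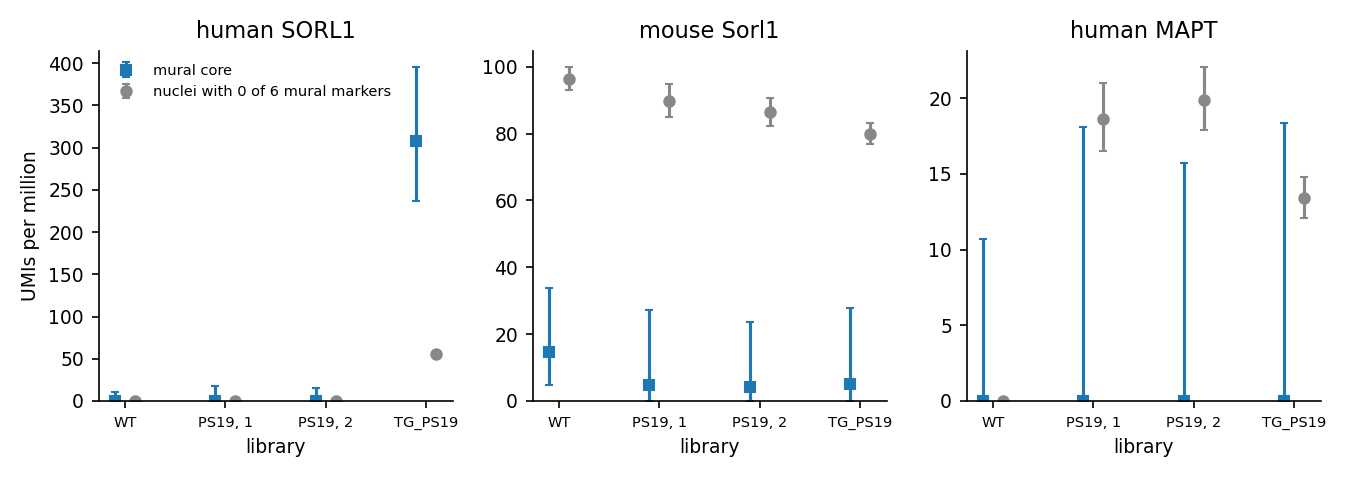
CPM of human SORL1, mouse Sorl1 and human MAPT by library, summed over core mural nuclei (squares) and over nuclei with 0 of 6 mural markers (circles), with exact Poisson 95% intervals. In the core SORL1 is at 0 outside TG_PS19, Sorl1 is low and MAPT is at 0. In TG_PS19 SORL1 is higher in the core than in nuclei without mural markers, and WT nuclei of the latter kind hold 2 SORL1 UMIs.

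Over all members, PS19 against WT gave no gene that rose and 24 that fell among 7313 genes tested (percent called 0.328%, adjusted p under 0.05 in edgeR's quasi-likelihood test). None of the 24 is on the list of pericyte genes outside the rule, and 1, Kcnma1, is on a list of ion channel and pump genes. The 12 with the largest fall were Adarb2, Adam23, Slc24a2, Ank3, Brinp3, Nrg3, Nrxn3, Gm16168, St18, Slc6a11, Pigk and Rgs7, many of them genes of neurons, and also Slc6a11, an astrocyte GABA transporter, and St18, an oligodendrocyte transcription factor. All 24 were higher in nuclei without mural markers than in the core in each of the 4 libraries, as were 1737 of the 7313 genes tested. The summed astrocyte markers of the members moved with this, at 7329 CPM in WT against 1100 and 5523 in PS19 and 4659 in TG_PS19, and so did neuron markers, at 2627 against 1276, 1692 and 2049. Their part in the result was not tested. The highest-ranked genes in the upward direction, among them Zbtb16, Il34, Aox3, Clec2d and Gxylt2, did not pass. This count ranged from 0 to 248 over the other settings, and leaving out 3 nuclei with shared barcodes raised it to 166. In that setting the prior degrees of freedom, edgeR's weight for the spread shared between genes, also went from 20.1 to infinite.

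In the core, PS19 against WT gave 15 genes that rose and 64 that fell among 5274 tested (percent called 1.5%). With genes of 40 or more UMIs these were 0 and 7, and with DESeq2 0 and 2, so none of the rises described below kept its call in either. Of the 64, 52 were again genes higher in nuclei without mural markers, as were 884 of the 5274 tested, led by Slc35f1, Brinp3, Csmd1, Il1rapl1, Edil3, Nkain2, Nlgn1, Tenm2, Kirrel3, Ptprz1 and Fgf14. Csmd1 held 296 CPM in the WT core, 14.6 and 16.8 in PS19 and 154 in TG_PS19, after scaling, beside at least 2800 CPM in nuclei without mural markers. The PS19 pair was thus low and both other libraries high. Such markers stayed lower in the PS19 core: neuron markers summed to 1814 CPM in WT, 946 and 940 in PS19 and 1268 in TG_PS19, astrocyte markers to 733, 387, 374 and 626, and oligodendrocyte markers to 1328, 872, 698 and 1407. Whether these transcripts were made in mural nuclei or came from free RNA of other cells was not tested.

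Of the 5274 genes tested, 795 were at least 2-fold higher in the core than in nuclei without mural markers in all 4 libraries. They included 4 of the 15 genes that rose in PS19, among them Il34, Dcbld1 and Il13ra1. Il34 (chromosome 8, 110741829 to 110805924) encodes interleukin 34, a ligand of the microglial receptor CSF1R. Its level was 573 CPM in WT, 942 and 1174 in the PS19 pair and 945 in TG_PS19, so all 3 tau-transgenic libraries were above WT. On the log2 scale it rose by 0.89 in PS19 (SE 0.21, edgeR adjusted p = 0.00315), by 0.72 with the first PS19 library alone and by 1.04 with the second alone. It did not pass with genes of 40 or more UMIs (edgeR adjusted p = 0.126), and DESeq2 gave an adjusted p of 1. In nuclei without mural markers Il34 stood at 8.32 to 8.56 CPM in all 4 libraries. TG_PS19 differed from PS19 by -0.17 (SE 0.21, edgeR adjusted p = 0.892) and from WT by 0.72 (SE 0.25, edgeR adjusted p = 0.276), neither past the threshold.

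Il13ra1, a receptor chain for interleukins of the IL-13 type, rose from 54.7 CPM in WT to 131 and 147 in PS19, with 82.2 in TG_PS19, and its rise of 1.34 (SE 0.38, edgeR adjusted p = 0.0313) rests on 19 WT UMIs. Dcbld1, which encodes a membrane protein, rose from 89.2 to 170 and 226 CPM, with 190 in TG_PS19 (log2 change 1.16, SE 0.33, edgeR adjusted p = 0.0319). For Il34, Il13ra1 and Dcbld1 the PS19 pair lay on the same side of WT.

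Zbtb16, a transcription factor gene induced by glucocorticoids, rose from 31.6 CPM in WT to 136 and 134 in PS19, a log2 change of 2.08 (SE 0.43, edgeR adjusted p = 0.000252) on 11 WT UMIs. Ddx5, an RNA helicase gene, rose from 682 to 1593 and 1275 CPM (1.07, SE 0.21, edgeR adjusted p = 5.33e-05). Unlike Il34, both moved the same way in nuclei without mural markers, Zbtb16 from 134 CPM in WT to 220 and 235 and Ddx5 from 489 to 843 and 657. Kitl, the ligand of the receptor KIT, rose from 31.6 to 87.4 and 113 CPM (1.66, SE 0.47, edgeR adjusted p = 0.0275). Taf3, a subunit of the general transcription factor TFIID, rose by 1.39 (SE 0.36, edgeR adjusted p = 0.0129). Tmtc4, a mannosyltransferase gene, rose from 37.4 to 121 and 168 CPM (1.95, SE 0.42, edgeR adjusted p = 0.000402), with 236 in TG_PS19, and Mir6236 rose from 118 to 214 and 293 CPM (1.11, SE 0.30, edgeR adjusted p = 0.0183). Bmp6, Cemip, Lama1, Flrt2 and Slc7a11 also passed, but their UMIs lay in very few nuclei. Bmp6 was seen in 2, 3, 2 and 5 core nuclei, and in the PS19 pair the 3 nuclei with the most held 95 to 100% of the UMIs of Bmp6, Cemip, Lama1 and, in the first and second library, 100% and 96.8% of those of Slc7a11. With at least 4 of 6 markers required, Bmp6, Cemip, Lama1 and Flrt2 fell below the filter on counts and Slc7a11 turned to -2.19.

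Among the genes that fell in PS19, 3 were at least 2-fold higher in the core than in nuclei without mural markers in all 4 libraries. These were 3 of 64, beside 795 of the 5274 genes tested. Gpc6 (chromosome 14, 116925315 to 117976544), a cell-surface heparan sulphate proteoglycan, held 1269 CPM in WT, 734 and 805 in PS19 and 1598 in TG_PS19. It fell by 0.72 on the log2 scale in PS19 (SE 0.20, edgeR adjusted p = 0.0216) and was 1.05 higher in TG_PS19 than in PS19 (SE 0.20, edgeR adjusted p = 0.000169), the latter at 1.04 without Xist nuclei. Its level in nuclei without mural markers was also lower in PS19, at 257 CPM in WT, 170 and 203 in PS19 and 265 in TG_PS19. Ccr9, a chemokine receptor gene, held 187, 77.7, 92.2 and 159 CPM and fell by 1.13 in PS19 (SE 0.33, edgeR adjusted p = 0.0403). Gm10125, a non-coding gene, fell by 1.32 (SE 0.37, edgeR adjusted p = 0.0279). In all 3 the PS19 pair lay below both WT and TG_PS19.

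Cst3, Apoe and Clu also fell in the PS19 core. Cst3, which encodes the protease inhibitor cystatin C, held 1577 CPM in WT, 651 and 537 in PS19 and 1372 in TG_PS19. It fell by 1.41 in PS19 (SE 0.20, edgeR adjusted p = 7.81e-10) and, with Csmd1, was the only gene that DESeq2 also called in this comparison (adjusted p = 0.0215). Apoe, apolipoprotein E, held 1188, 588, 449 and 981 CPM and fell by 1.2 (SE 0.20, edgeR adjusted p = 1.41e-06). Clu, clusterin, fell by 1.58 (SE 0.31, edgeR adjusted p = 9.13e-05). All 3 were highly expressed outside mural nuclei too, where Cst3 stood at 1105, 611, 471 and 916 CPM, Apoe at 1193, 1107, 787 and 920, and Clu at 287, 228, 132 and 147. Of the 64 genes that fell, 43 were also higher in WT than in both PS19 libraries in nuclei without mural markers (67.2%). Of the 15 that rose, 6 moved the same way there (40%). Over all genes tested, in either direction, this share was 43.4%. The plasma-membrane calcium pump Atp2b1 fell by 0.95 (SE 0.27, edgeR adjusted p = 0.0342).

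**Figure D4:**
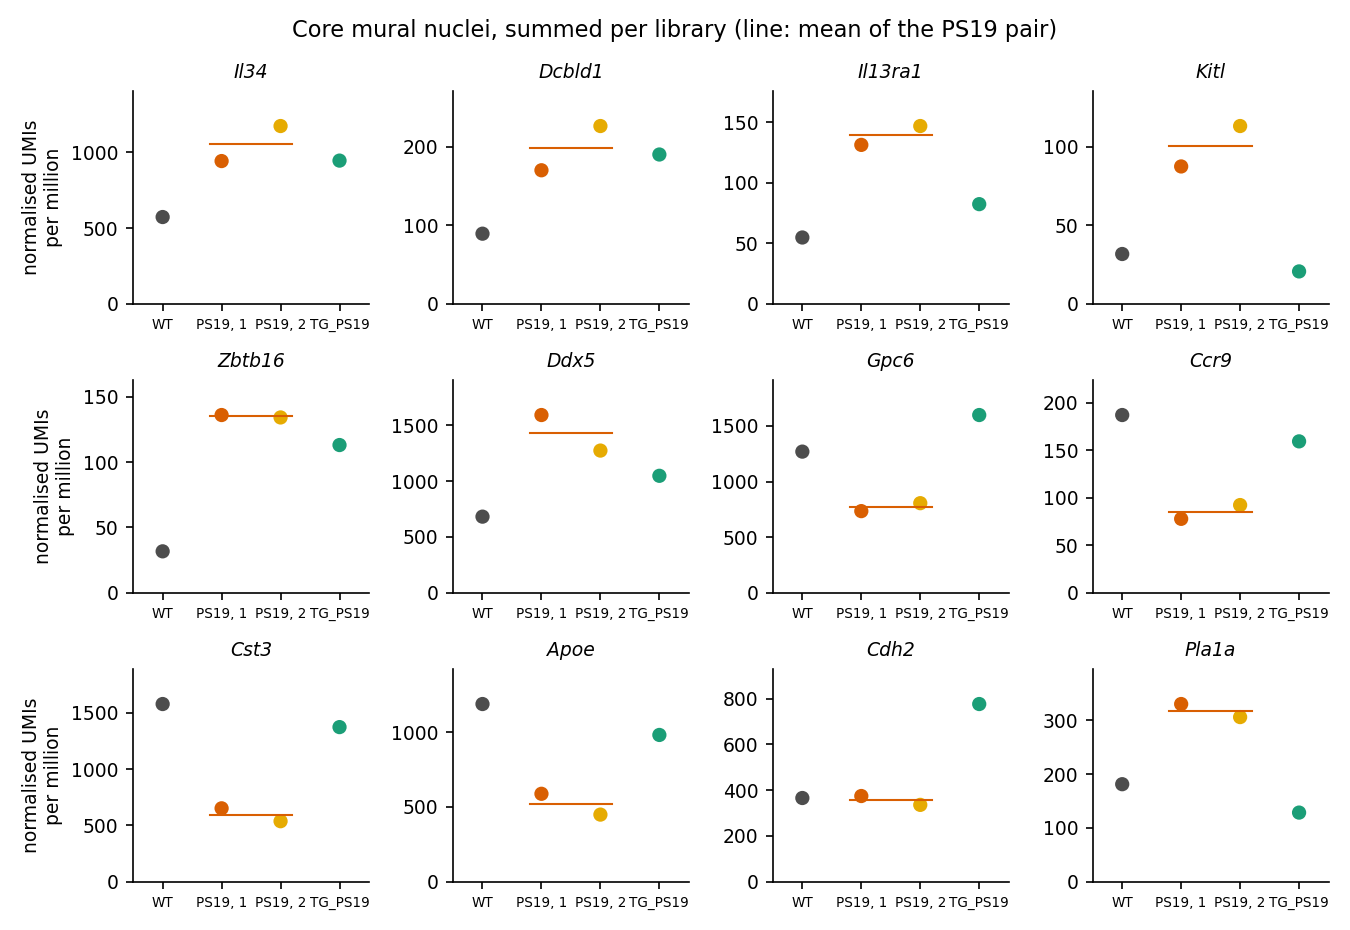
Normalised CPM of 12 genes in core mural nuclei, 1 point per library and a line at the mean of the PS19 pair. Il34 and Dcbld1 are above WT in all 3 tau-transgenic libraries, Gpc6, Ccr9, Cst3 and Apoe are lower in the PS19 pair than in WT and TG_PS19, and Cdh2 stands apart in TG_PS19.

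TG_PS19 against PS19 over all members gave 15 genes that rose and none that fell (percent called 0.205%). They were led by SORL1, Xist and its antisense partner Tsix, and then by Lhfpl3, Slc24a2, St18, Nrxn3, Anks1b, Pigk, Csmd3, Opcml and Edil3. Of the 15, 13 were higher in nuclei without mural markers than in the core in all 4 libraries, as were 1737 of the 7313 tested. Pdk1, Ddx3y, Eif2s3y, Gm26532, Aox3 and Snhg11 came next in the downward direction and did not pass. With library totals 24 rose and 3 fell, and without Xist nuclei 12 genes were called.

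In the core, 37 genes rose and 10 fell in TG_PS19 against PS19 (percent called 0.891%), and 32 genes were called without Xist nuclei. With library totals in place of TMM scaling 26 rose and 13 fell. After SORL1, Xist and Tsix, the largest rises were in Csmd1, Htra1, Foxp2, Clstn2, Nckap5, Opcml, Lrp1b, Olfm1 and Dlg2. Of the 37, 17 were genes higher in nuclei without mural markers, and 5 were at least 2-fold higher in the core, beside 884 and 795 of the 5274 tested. Cdh2, which encodes N-cadherin, the adhesion protein between pericytes and endothelium, held 365 CPM in WT, 374 and 335 in PS19 and 776 in TG_PS19. It rose by 1.13 against PS19 (SE 0.23, edgeR adjusted p = 0.000877) and by 1.09 against WT (SE 0.26, edgeR adjusted p = 0.014). Without Xist nuclei these were 1.33 and 1.28. Cysltr2, a receptor for cysteinyl leukotrienes seen at only 0.0693 to 0.163 CPM outside mural nuclei, held 121, 97.2, 105 and 242 CPM and rose by 1.25 (SE 0.34, edgeR adjusted p = 0.0315; 1.43 without Xist nuclei). Fgfr2, a fibroblast growth factor receptor gene, rose by 0.87 (SE 0.23, edgeR adjusted p = 0.0288), and did not pass without Xist nuclei (edgeR adjusted p = 0.0817). Cst3 and Apoe rose by 1.21 and 0.93 against PS19 (SE 0.21 and 0.22, edgeR adjusted p = 9.26e-06 and 0.00712). These rises share the PS19 libraries with the falls against WT given above and are not separate evidence.

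The 10 genes that fell in the TG_PS19 core were Pdk1, Kitl, Rev1, Trip4, Per1, Ddx3y, Tmem181c-ps, Tmem165, Gm26532 and Pla1a. Of these, 9 moved the same way in nuclei without mural markers (90%), as did 28 of the 37 that rose (75.7%). Over all genes tested, in either direction, this share was 52.5%. Pla1a (chromosome 16, 38396117 to 38433145), a phosphatidylserine-specific phospholipase gene and the only one called from the list of pericyte genes outside the rule, held 181 CPM in WT, 330 and 306 in PS19 and 128 in TG_PS19. It fell by 1.3 against PS19 (SE 0.33, edgeR adjusted p = 0.0182), and by 2.79 without Xist nuclei. Kitl held 4 UMIs in the TG_PS19 core against 18 and 27 in PS19 and fell by 2.27 (SE 0.62, edgeR adjusted p = 0.0326; 0.278 without Xist nuclei). Per1, a circadian clock gene that glucocorticoids induce, fell by 2.03 (SE 0.58, edgeR adjusted p = 0.0466), but its PS19 values were 155 and 62.9 CPM and the fall was 1.28 with the second library alone, and it did not pass without Xist nuclei (edgeR adjusted p = 0.106). Ddx3y lies on the Y chromosome, and its fall of 1.99 (SE 0.50, edgeR adjusted p = 0.0164) did not pass without Xist nuclei (edgeR adjusted p = 0.297). Pdk1 rests on 1 UMI in TG_PS19.

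TG_PS19 against WT gave 4 genes in all members (percent called 0.0547%), which rose and were SORL1, Xist, Tsix and Lhfpl3. With relative log expression scaling 4 rose and 1 fell, without Xist nuclei 2 rose and 8 fell, and with 4 of 6 markers 10 rose and 31 fell. Heatr5b and Mir6236 came next upward and Ptchd4, Eif2s3y, Gm973, Ddx3y, Gm26532 and Btg2 downward, and none of these passed. In the core 11 rose and 5 fell (percent called 0.303%), and 9 and 4 without Xist nuclei. Lama1, Tmtc4, Mir6236 and Myo10 rose, and Il1rapl1 fell, with both WT and TG_PS19 outside the range of the PS19 pair. Xist, SORL1, Tsix, Bmp6, Cemip, Flrt2 and Cdh2 also rose, and Ddx3y, Tmem165 and Gm26532 fell. Yaf2 was the next lowest and did not pass.

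The 11 gene lists chosen for pericytes and their surroundings follow. All counts and medians that follow are for the core, where the median log2 change over all genes tested was 0.02 for PS19 against WT and -0.01 for TG_PS19 against PS19 (-0.03 without Xist nuclei). The percent called over all genes tested was 1.5% and 0.891%. Of 24 pericyte genes tested outside the rule, 0 passed in PS19 against WT (median 0.16) and 1, Pla1a, fell in TG_PS19 against PS19 (median -0.21, and -0.24 without Xist nuclei). Dlc1, a GTPase-activating protein gene, held 6675, 6014, 7878 and 9419 CPM. The transcription factor gene Ebf1 held 4143, 4168, 4377 and 5210 CPM, and the amino acid transporter gene Slc38a11 held 1519, 1875, 1824 and 1973 CPM. None of these 3 passed in either comparison.

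The 6 markers of the rule are described without a test. Pdgfrb stood at 1859, 1768, 1702 and 1865 CPM, Abcc9, the sulphonylurea receptor partner of Kcnj8, at 880, 933, 1010 and 951, and Atp13a5 at 6059, 5533, 6658 and 6541. Rgs5, a regulator of G-protein signalling, held 639, 826, 604 and 884 CPM and Kcnj8 262, 389, 310 and 283. Vtn was lowest in TG_PS19, with 6137 in WT, 6607 and 4759 in PS19 and 4039 in TG_PS19.

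Of 7 contractile genes tested, 0 passed in either comparison (medians 0.25 and -0.21, the latter -0.16 without Xist nuclei). Mylk and Myl9, which act in the contractile apparatus, held 270.5 to 352 and 187 to 253 CPM. The remaining 16 of the 23 genes of the list did not reach the filter on counts. None of 27 basement membrane and matrix genes passed (medians 0.00 and -0.10, the latter -0.03 without Xist nuclei), among them the laminin chain genes Lama2 and Lamc1 and the integrin gene Itga1. None of 17 PDGF, Notch and angiopoietin genes passed (medians 0.09 and 0.19, the latter 0.25 without Xist nuclei), with Maml2, Pik3r1 and Dtx3 the 3 of highest level. Of 20 TGF-beta and BMP genes, Bmp6 passed as described (medians 0.12 and -0.04, the latter 0.05 without Xist nuclei). The receptor gene Bmpr2 held 118 CPM in WT and 219, 235 and 226 in the other libraries, a log2 difference of 0.94 in PS19 (SE 0.31) that did not pass (edgeR adjusted p = 0.104).

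Vasoactive receptors and contraction signalling gave 0 called genes of 29 in both comparisons (medians 0.04 and 0.09, the latter -0.06 without Xist nuclei). Prkg1, the cyclic GMP-dependent kinase of relaxation, held 4330, 3469, 3899 and 5025 CPM, and the phosphodiesterase genes Pde8b and Pde4d were the next in level. Of 27 ion channel and pump genes only Atp2b1 passed (medians -0.14 and 0.16, the latter 0.18 without Xist nuclei). The calcium channel genes Cacna1c and Cacnb2 did not pass. Of 18 solute transporter genes 1 fell in PS19 against WT and 0 passed in TG_PS19 against PS19 (medians 0.01 and 0.10, the latter 0.14 without Xist nuclei). Slc16a12, a carrier of monocarboxylic acids, held 760 CPM in WT, 1127 and 1099 in PS19 and 725 in TG_PS19, but neither difference passed (edgeR adjusted p = 0.235 and 0.195). Without Xist nuclei it fell by 0.89 in TG_PS19 against PS19 (edgeR adjusted p = 0.0398).

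Inflammatory and antigen presentation genes had the largest median of the 11 lists in PS19 against WT. Of 18 tested, 2 rose, Il34 among them, 0 fell, and 16 had a positive log2 change (median 0.44, beside 0.02 for all genes tested). This median was 0.44 to 0.45 under the other scalings and 0.75 over 13 genes with at least 4 of 6 markers. In TG_PS19 against PS19 15 of the 18 had a negative change and 0 passed (median -0.36). Without Xist nuclei 14 of 17 were negative, with a median of -0.57. Both comparisons use the PS19 pair. Osmr, the oncostatin M receptor gene, held 161, 228, 176 and 149 CPM and did not pass. Of 45 genes on the list, 27 did not reach the filter on counts, so the median covers the abundant ones only.

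Immediate early, heat shock and glucocorticoid response genes had a median of 0.34 in PS19 against WT, with Zbtb16 the only one called of 13, and -0.26 in TG_PS19 against PS19, with Per1 called. Without Xist nuclei the latter median was -1.33, with 10 of 13 negative. Nr3c1, the glucocorticoid receptor gene, held 178, 185, 264 and 211 CPM and did not pass. Of 23 sorting receptor, retromer and lipoprotein genes, Apoe and Clu fell in PS19 and Apoe rose in TG_PS19 against PS19 (medians -0.17 and -0.03, the latter -0.12 without Xist nuclei). App, which encodes a cargo of SORLA, and Igf2r, the receptor gene for mannose 6-phosphate and IGF2, held 394 to 549 and 340 to 414 CPM and did not pass.

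**Figure D5:**
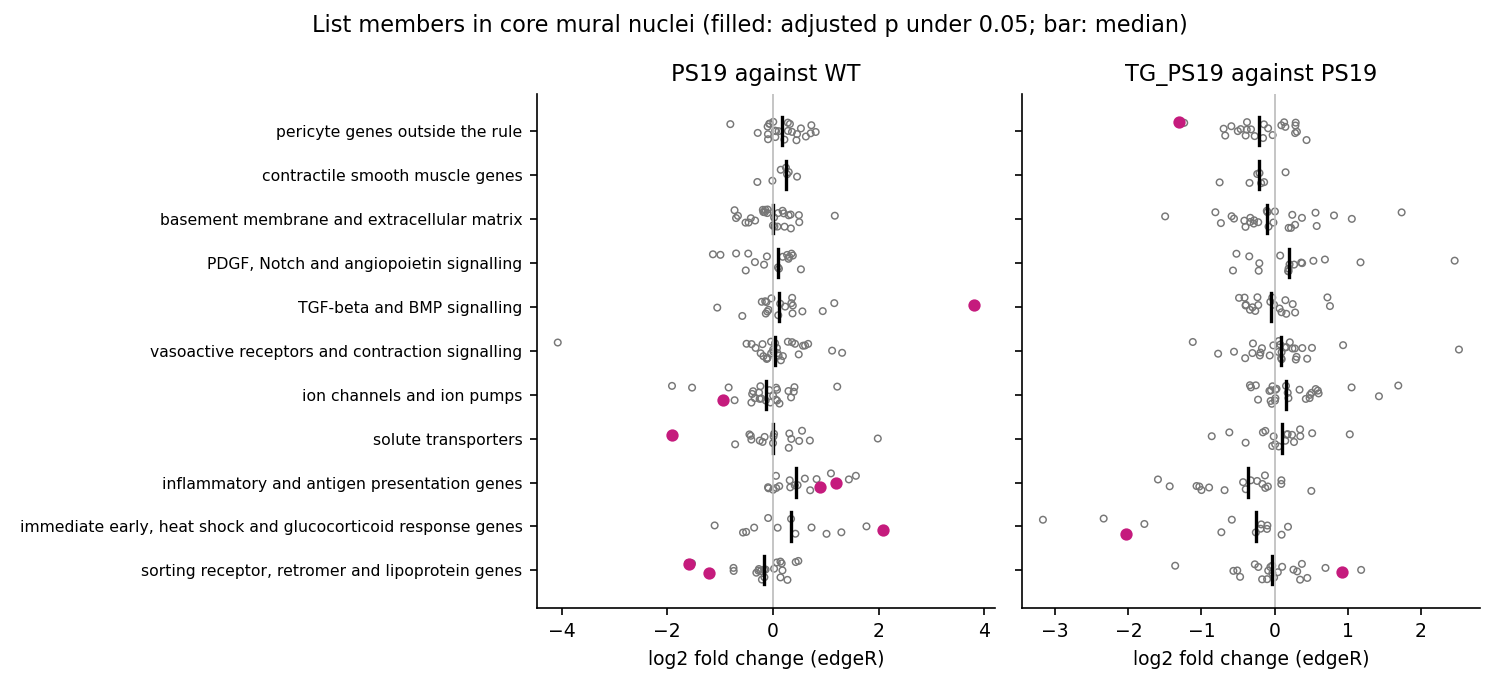
Log2 fold changes of the tested members of 11 gene lists in core mural nuclei, 1 point per gene, for PS19 against WT and TG_PS19 against PS19, which share the PS19 libraries. Filled points have an edgeR adjusted p under 0.05, and bars are medians. Inflammatory genes lie mostly right of 0 in PS19 and left of 0 in TG_PS19, with 2 and 0 of 18 called.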

How the data were processed

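The authors' deposited files hold raw UMI counts per gene and nucleus, per the file headers the output of Cell Ranger 7.1.0, a version the submitters' processing notes also name together with GRCm38. The annotation release is not given in the sources used here. Of 55401 mouse features, 54349 identifiers were found in GENCODE release M21, which gave the positions, and the 2 others are human MAPT and SORL1. Counts were neither corrected for free RNA nor integrated.

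UMIs of the chosen nuclei were summed per library and fitted with edgeR 4.0.16 (R 4.3.3): filterByExpr by group, TMM scaling, quasi-likelihood F-test over all 4 libraries, where the PS19 pair gives the only residual degree of freedom (1), and Benjamini-Hochberg adjustment at 0.05 over all genes tested except the 16 that the rule used. The lone WT and TG_PS19 libraries are assumed to vary like the PS19 pair, and in the core the fit gave every gene the same prior spread. CPM in the text are scaled values unless a level outside mural nuclei or a transgene is given, where they are counts per 1000000 UMIs without scaling. Standard errors were taken from the fold change and F. The PS19 members differed by 2.97 times the Poisson variance per gene, and the core by 1.42 times.

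Counts were simulated with 1 spread for both sets, close to the edgeR dispersion over all members (0.0524) and above that of the core (0.0116). Changed genes were drawn only from the better-counted ones, so the recovery of the real core fit is not measured. There the core fit recovered 18 of 100 genes changed 2-fold and 88 of 100 changed 4-fold. Of 4690 genes fitted, 7 unchanged ones were called. The fit over all members recovered 4 and 69, and called 2 unchanged genes of 6727 genes fitted. Doublets, scored with the Scrublet method (scanpy 1.11.5), were kept in the main values: 21, 4, 1 and 7 members were marked, and 2, 1, 0 and 0 core nuclei.

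Per comparison, the text names the 12 called genes of largest fold change in each direction with at least 20 UMIs and the lone library outside the range of the PS19 pair (for TG_PS19 against WT, both lone libraries outside it), the lowest p up to 6 where fewer were called, and the 3 most abundant and all called members of each list. Other called genes, and those at least 2-fold higher in the core (on CPM plus 5), were chosen after their values were seen. The mural rule, its marker genes and all lists were chosen with earlier results of these data known. The alternatives were other scalings, count filters, priors, DESeq2 1.42.0, marker and exclusion limits, thinning and leaving out doublets, Xist, contractile or shared-barcode nuclei. Some genes that met these rules are not reported here.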

Additional observations from a re-analysis of the deposited data

How the results depend on the processing

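The mural count of called genes moved with nearly every choice. PS19 against WT gave 24 genes, TG_PS19 against PS19 15 and TG_PS19 against WT 4. In that order the counts were 165, 68 and 5 with relative log expression scaling, 43, 27 and 4 with library totals, 0, 1 and 0 with genes of 5 or more UMIs, 8, 9 and 3 with 40 or more, 104, 61 and 5 with a robust prior, 0, 1 and 0 with adjusted residual degrees of freedom, 0, 2 and 1 with DESeq2, 248, 135 and 96 with 2 of 6 markers, 135, 48 and 41 with 4 of 6, 97, 6 and 19 with 0 exclusion genes, 30, 48 and 5 after thinning, 4, 4 and 3 without doublets, 36, 12 and 10 without Xist nuclei, 155, 71 and 5 without contractile nuclei and 166, 68 and 5 without shared barcodes. The prior degrees of freedom moved too. They were 20.1 as reported, 376 with relative log expression scaling, 5.7 with genes of 5 or more UMIs and 4.58 with adjusted residual degrees of freedom. Without doublets they were 27.3. They were infinite with a robust prior, without contractile nuclei and without shared barcodes. The cause of the changes in count was not tested. Where 0 genes were called for PS19 against WT, 26 had an unadjusted p under 0.05 in DESeq2, 639 in edgeR with genes of 5 or more UMIs and 398 with adjusted degrees of freedom, beside 524 in edgeR as reported.

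The core, added after seeing the data, gave 79, 47 and 16 genes. Its counts were 49, 36 and 6 with 4 of 6 markers, 7, 2 and 2 with genes of 40 or more UMIs and 2, 2 and 1 with DESeq2, and stayed within 1.5 times under the other 4 settings. Il34, Gpc6, Apoe and Cst3 kept their direction in all 7 edgeR settings of the core and were called in 6, 6, 6 and 7 of them for PS19 against WT, with adjusted p up to 0.126, 0.177, 0.052 and 0.0177. DESeq2 gave Il34 an adjusted p of 1.

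The PS19 share over WT was 0.956 with 2 of 6 markers, 1.36 with 4 of 6, 1.01 with 0 exclusion genes, 1.36 after thinning and 1.3 in the core, and 1.12 to 1.16 with 1 PS19 library. TG_PS19 over PS19 was 0.632, 0.62, 0.742, 0.629 and 0.62 in the same order, 0.678 without doublets, 0.814 without Xist nuclei and 0.653 to 0.673 with 1 PS19 library. With 1 or more contractile markers the shares were 7.74, 11.8, 6.43 and 7.53% in WT, the PS19 pair and TG_PS19. With 3 or more the first PS19 library had 0.735%, and after thinning both PS19 libraries had 0%. In all members Adarb2 and Nrxn3 turned to 0.54 and 0.048 in PS19 against WT with 2 of 6 markers, and in the core Slc7a11 turned to -2.19 with 4 of 6. No paired analysis was possible because only PS19 has more than 1 library. Depth limits the core to the better-counted genes.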

Other observations

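Within the TG_PS19 core, nuclei with an Xist UMI and those without could be set side by side. They are from 1 library, so no test was made, and a nucleus without an Xist UMI may still express it at this depth. Pla1a gave 20 UMIs in the 63 nuclei with Xist and 5 in the 84 without, or 227 and 44.3 CPM. Zbtb16 gave 20 and 2, or 227 and 17.7 CPM, beside 133 and 136 CPM in the PS19 core nuclei without Xist. Levels of Notch3, 872 and 868 CPM, and Gpc6, 1552 and 1541 CPM, were alike in both. With Xist nuclei left out, the TG_PS19 level of Zbtb16 fell by 2.83 (log2) against PS19 (edgeR adjusted p = 0.0331), against a difference of -0.26 with them (edgeR adjusted p = 0.912), and Pla1a fell by 2.79 (edgeR adjusted p = 4.24e-05).

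As deposited, 63 of 5501 TG_PS19 nuclei with an Xist UMI were core (1.15%, exact 95% interval 0.881 to 1.46%), against 84 of 4218 without one (1.99%, 1.59 to 2.46%). Core nuclei of this library were shallower than its kept nuclei, with medians of 1262 and 2659 UMIs. After thinning to 1000 UMIs, Xist was detected in 41.7% of core nuclei (32.7 to 51.02%) and in 44.1% of nuclei without mural markers (43.0 to 45.3%), so the intervals overlap at equal depth. The summed Xist level as deposited was 1019 and 1021 CPM.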
